A study of Saccharomyces cerevisiae with 12 samples.

Results

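The 68 nuclear genes of Saccharomyces cerevisiae whose names mark them as proteins of the mitochondrial ribosome were examined on 12 Affymetrix arrays. They were taken by gene symbol, as annotated for the array, under a rule set with earlier results of these data known. The rule takes MRPL and MRPS genes with a number, numbered RSM genes, IMG1, IMG2, MNP1 and 11 further MRP genes. Each gene had a single probe set, so 68 of 5716 probe sets and 68 of 5449 genes were members. By their RefSeq ribosomal names and the common assignment, 40 belong to the large subunit and 28 to the small subunit. Of the 68, 41 have a counterpart in bacterial ribosomes, 25 are specific to mitochondria, and MRP51 and RSM22 were assigned to neither class. For MRP51 this departs from its RefSeq name, bS1m, which has the form used for proteins with a bacterial counterpart.

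The study grew 2 prototrophic laboratory strains aerobically, either in batch or in a glucose-limited chemostat, which gives 4 groups of 3 biological replicates, each on its own array. CEN.PK 113-7D carries mating type a. YSBN2 is an FY strain with the HO locus replaced by drug-resistance cassettes (ho::Ble/ho::HphMX4), and its ploidy is not given in the labels. Batch medium held 30 g/L glucose, and chemostats received 7.5 g/L glucose with 0.3 g/L ethanol and were diluted at 0.1 per h. Every culture was kept at 30 °C and pH 5.0 in a 4 L reactor. Carbon supply and growth rate changed together between batch and chemostat, so their parts cannot be told apart, and each genetic background is represented by a single strain.

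Mitochondrial ribosomes translate the few proteins encoded by mitochondrial DNA, in yeast mainly core subunits of the respiratory chain and the ATP synthase. Their RNAs come from the mitochondrial genome, whereas nearly all of their proteins are encoded in the nucleus, made in the cytosol and imported. The large subunit holds the peptidyl transferase centre and the exit tunnel, and the small subunit decodes the messenger. Yeast represses respiration on abundant glucose and derepresses it under glucose limitation.

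Values are read as log2 signals, in which a difference of 1 is a doubling. Differences were tested with limma over all 12 arrays and all 5716 probe sets, and "called" means a Benjamini-Hochberg adjusted p under 0.05; errors beside differences are standard errors. Signals of different probe sets were not set against each other. Bulk RNA was measured, so fewer cells with a transcript and less of it per cell cannot be told apart. The members' values ran from 4.25 to 13.58, only MRPL4 had an array under 6, and their median SD within groups was 0.21, against 0.22 over all probe sets. HO, the gene disrupted in YSBN2, lay between 11.46 and 12.62 in every CEN.PK 113-7D array and between 2.11 and 2.39 in every YSBN2 array. Array medians ran from 11.02 to 11.37, and chemostat results are therefore also given with all arrays set to a common median. In the third YSBN2 batch array 196 probe sets differed by 2 log2 units or more from the other replicates of the group, a number that ran from 2 to 77 elsewhere. It was the highest of its group in 54 of 68 members (79.4%), against 43.2% of all probe sets. Total counts of members called in comparisons that use it are therefore also given without it. Counts by subunit, class or list, over both cultures or strains, and of arrays without overlap rest on all 12 arrays.

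Levels of these genes differed between the strains more than between the cultures. For CEN.PK 113-7D the median of the 68 genes was 12.20, 12.16 and 12.22 in batch, with 12.22, 12.10 and 12.32 under glucose limitation. For YSBN2 the batch arrays had medians of 11.45, 11.54 and 11.90 and those of the chemostat 11.51, 11.63 and 11.56. All 6 YSBN2 arrays thus lay below all 6 CEN.PK 113-7D arrays, and within a strain the ranges of batch and chemostat arrays overlapped. Relative to the median of its own array, the members' median stood higher by 1.16 ± 0.02 (SD, n = 3) in CEN.PK 113-7D batch, 0.89 ± 0.10 in CEN.PK 113-7D chemostat, 0.50 ± 0.23 in YSBN2 batch and 0.30 ± 0.04 in YSBN2 chemostat. On this relative scale the order of the strains was the same, and chemostat arrays lay below batch arrays in CEN.PK 113-7D.

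In both subunits the YSBN2 groups lay below the CEN.PK 113-7D groups. The median of the 40 large-subunit genes was 12.26 ± 0.07 (SD, n = 3) in CEN.PK 113-7D batch, 12.31 ± 0.12 in CEN.PK 113-7D chemostat, 11.69 ± 0.23 in YSBN2 batch and 11.70 ± 0.06 in YSBN2 chemostat. For the 28 small-subunit genes it was 12.00 ± 0.04, 11.94 ± 0.10, 11.38 ± 0.22 and 11.31 ± 0.09 in the same order. The cultures of a strain differed by less than the spread between replicates in either subunit, while the strains lay further apart than that spread in both.

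**Figure D1:**
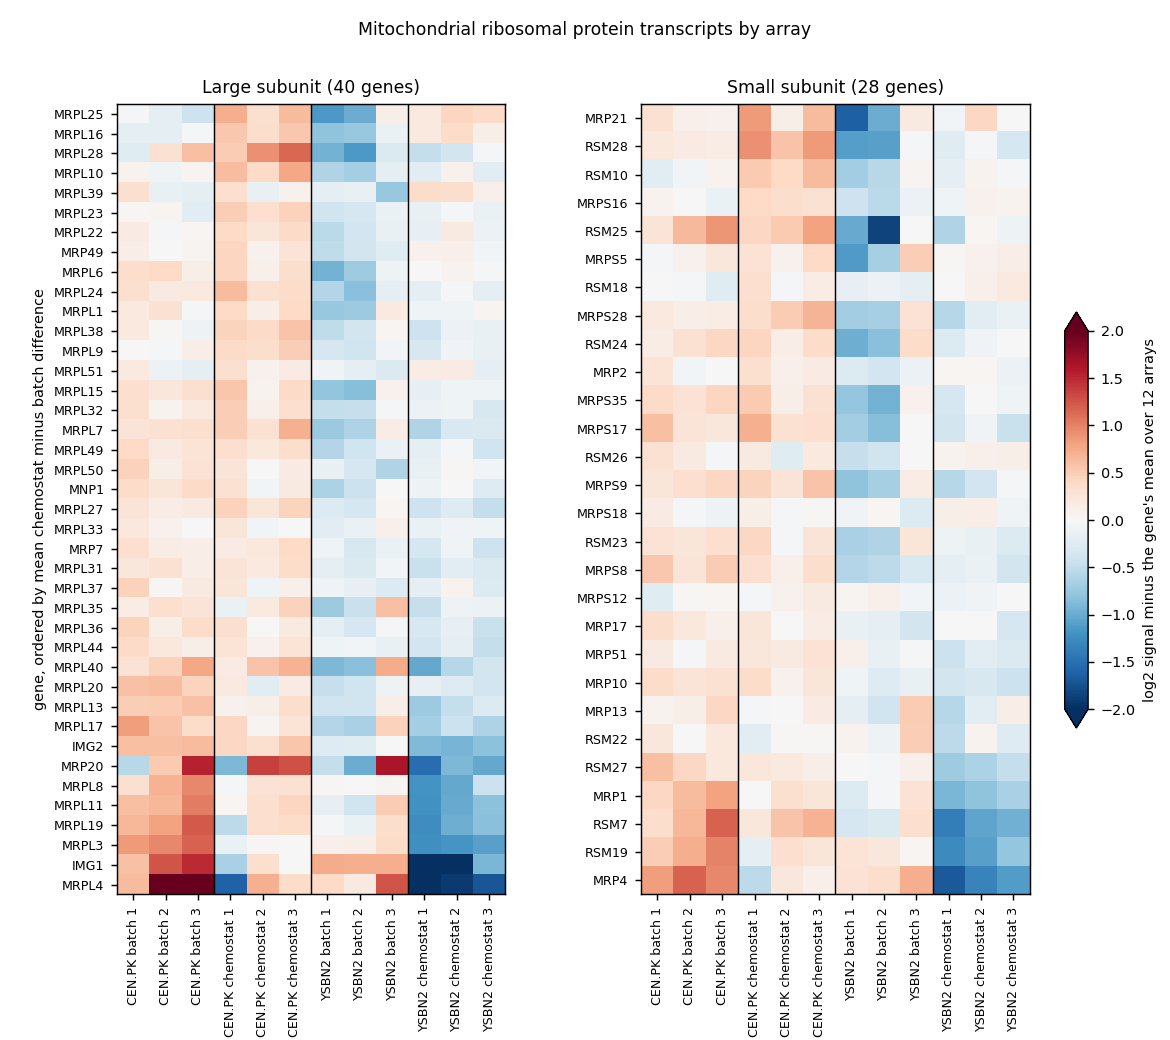
Signal of each of the 68 genes on each of the 12 arrays, as log2 difference from the gene's mean over the 12 arrays (red above, blue below; colours saturate at 2), for the large subunit (left, 40 genes) and the small subunit (right, 28 genes). Genes are ordered by their mean chemostat minus batch difference; YSBN2 arrays are mostly blue, the third YSBN2 batch array is paler than the other 2 of its group, and the bottom rows hold the genes that were lower in chemostat.

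In batch culture 38 of the 68 genes were called lower in YSBN2 than in CEN.PK 113-7D and 0 were called higher. Over all probe sets 10.5% were called lower and 18.5% higher in this comparison. The median difference of the members was -0.52, against 0.02 over all probe sets, and 66 of 68 members had a negative difference (44.9% of all probe sets). In 40 members the arrays of the strains did not overlap, with YSBN2 the lower (15.9% of all probe sets). By subunit, 24 of 40 large-subunit and 14 of 28 small-subunit genes were called lower. Without the third YSBN2 batch array the count was 52 and the median -0.67, with 0 members higher, while 19.5% of all probe sets were then called lower and 24.0% higher. Leaving out any other batch array of either strain lowered the count, to between 15 and 22, with no member called higher. It was 15 without the first or without the second YSBN2 batch array. The shares of all probe sets called in those fits were not counted, so the falls are not read as particular to the members.

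In chemostat culture 37 genes were called lower in YSBN2 and 0 higher, where 15.3% of all probe sets were called lower and 12.9% higher. The median difference of the members was -0.54, against -0.01 over all probe sets, and 65 of 68 members had a negative difference (52.6% of all probe sets). In 48 members all 3 YSBN2 arrays lay below all 3 CEN.PK 113-7D arrays (25.7% of all probe sets). The large subunit contributed 23 and the small subunit 14 of these calls. The count fell to 20 without the third CEN.PK 113-7D chemostat array and to 22 without the first YSBN2 chemostat array. The shares of all probe sets called in these fits were not counted, so the falls are not read as particular to the members. After scaling to a common array median 48 members were lower in batch and 34 in chemostat (14.8% and 13.8% of all probe sets), and 0 were higher in either (14.8% in each).

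Altogether 28 members were called lower in YSBN2 in both cultures (5.55% of all probe sets), 10 in batch alone, 9 in chemostat alone and 21 in neither. The shares of all probe sets called in a single culture or in neither were not counted. Calls of higher signals in both cultures were made in 6.21% of all probe sets and in 0 members. The batch and chemostat differences, which come from separate arrays, had the same sign in 63 of 68 genes and a Pearson correlation of 0.51 across the members (0.52 across all probe sets). In 20 members every one of the 6 YSBN2 arrays lay below every one of the 6 CEN.PK 113-7D arrays (3.22% of all probe sets). In 0 members the order was the opposite (3.66% of all probe sets). The 20 genes are IMG2, MRP7, MRPL6, MRPL7, MRPL9, MRPL24, MRPL27, MRPL31, MRPL32, MRPL36, MRPL44 and MRPL49 of the large subunit, and MRP10, MRPS8, MRPS9, MRPS17, MRPS35, RSM25, RSM27 and RSM28 of the small subunit.

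Among them, IMG2 (YCR071C), the mitochondria-specific large-subunit protein mL49, read 12.63, 12.63 and 12.66 in CEN.PK 113-7D batch, 12.44, 12.35 and 12.59 in CEN.PK 113-7D chemostat, 11.77, 11.79 and 12.04 in YSBN2 batch and 11.14, 11.10 and 11.22 in YSBN2 chemostat. Its strain difference was -0.77 ± 0.09 in batch (adjusted p = 0.000196, limma) and -1.31 ± 0.09 in chemostat (adjusted p = 8.76e-06), and its 3 YSBN2 chemostat arrays lay below the other 9.

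MRPS8 (YMR158W), the counterpart of bacterial ribosomal protein S8, read 12.21, 11.92 and 12.17 in CEN.PK 113-7D batch and 12.00, 11.76 and 12.02 in chemostat. The YSBN2 values were 11.08, 11.14 and 11.35 in batch, against 11.48, 11.52 and 11.29 in chemostat. Its strain difference was -0.91 ± 0.12 in batch (adjusted p = 0.000414, limma) and -0.49 ± 0.12 in chemostat (adjusted p = 0.0127), and the strains did not overlap in either culture.

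RSM25 (YIL093C), the small-subunit protein mS23, had the largest called difference in batch. It read 10.43, 10.82 and 11.05 in CEN.PK 113-7D batch and 9.16, 8.32 and 10.18 in YSBN2 batch, a difference of -1.54 ± 0.40 (adjusted p = 0.0181, limma). The YSBN2 batch arrays of RSM25 were spread widely, with the third highest. Its chemostat difference was not called, although the 6 arrays of each strain did not overlap.

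Other large called differences in batch were those of MRPL28 (-1.01 ± 0.28), RSM28 (-0.92 ± 0.25), MRPS35 (-0.91 ± 0.24), MRPS17 (-0.88 ± 0.23), MRPL6 (-0.87 ± 0.19) and MRPL20 (-0.87 ± 0.14). In chemostat the largest were those of IMG1 (-1.64 ± 0.38), RSM7 (-1.63 ± 0.25), MRP4 (-1.32 ± 0.22), IMG2, MRPL11 (-1.28 ± 0.23), RSM19 (-1.17 ± 0.18), MRPL28 (-1.14 ± 0.28) and MRPL3 (-1.13 ± 0.11). MRPL11 is the counterpart of bacterial L10, which anchors the stalk that recruits translation factors. The stalk protein itself, MNP1 (bL12m), was lower in YSBN2 batch (-0.69 ± 0.16, adjusted p = 0.0108, limma) and was not called in chemostat. MRP7 and MRPL36, counterparts of bacterial L27 and L31, were called lower in both cultures.

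Some members showed no call and small differences between the strains. MRPS12 (YNR036C), the counterpart of S12 at the decoding centre, read between 13.17 and 13.58 in CEN.PK 113-7D and between 13.28 and 13.51 in YSBN2. Its strain difference was 0.09 in batch (95% confidence interval -0.12 to 0.30) and -0.14 in chemostat (-0.35 to 0.07). RSM18, the counterpart of S18, differed by -0.06 (-0.29 to 0.17) in batch and by -0.05 (-0.28 to 0.18) in chemostat. MRPS18 differed by -0.11 (-0.35 to 0.12) and 0.01 (-0.22 to 0.25). For these 3 small-subunit genes the intervals leave out the median difference of the members in both cultures. The intervals are not adjusted for the number of members, and RSM18 and MRPS18 were picked after their values were seen. No conclusion is therefore drawn from this. MRPL39, the counterpart of L33, had the highest difference of any member in chemostat, 0.18 (-0.28 to 0.64), without a call.

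**Figure D2:**
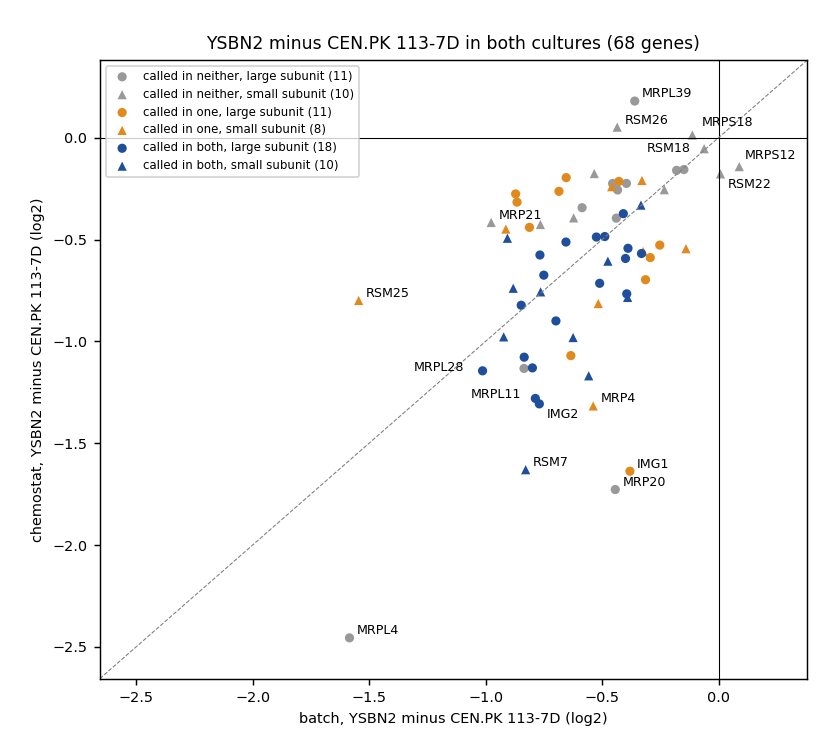
YSBN2 minus CEN.PK 113-7D difference (log2) of each of the 68 genes in batch (horizontal axis) and in chemostat (vertical axis), with circles for the large and triangles for the small subunit and colours for the number of cultures in which the difference was called; the dashed line marks equal differences. Nearly all genes lie below and left of 0, with 28 called in both cultures, and MRPS12, RSM18 and MRPS18 sit near the origin.

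The response to the culture was uneven among these genes and had no common direction in the deposited scale. In CEN.PK 113-7D, 8 members were called higher and 8 lower in chemostat than in batch, while 33.9% of all probe sets were called higher and 22.2% lower. The median difference of the members was 0.02, against 0.09 over all probe sets. In YSBN2, 7 members were called higher and 14 lower (30.6% and 21.9% of all probe sets), with a median difference of 0.10 against 0.06 over all probe sets. The arrays of the cultures did not overlap in 11 higher and 11 lower members in CEN.PK 113-7D (39.9% and 28.6% of all probe sets) and in 10 higher and 15 lower members in YSBN2 (33.3% and 25.5%). The counts depended on the scaling. With a common array median, which moves the median of all probe sets by -0.28 in CEN.PK 113-7D and by -0.13 in YSBN2, 0 members were higher and 24 lower in CEN.PK 113-7D (25.4% and 37.5% of all probe sets), and 2 were higher and 19 lower in YSBN2 (25.8% and 27.4%). Without the third YSBN2 batch array 26 members were called higher and 13 lower in YSBN2 chemostat, against 31.9% and 22.6% of all probe sets in that fit.

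Across the 68 genes the chemostat differences of the strains, taken from separate arrays, had a Pearson correlation of 0.86 and a Spearman correlation of 0.68, and 52 had the same sign. The Pearson correlation across all probe sets was 0.84. Of the members 7 were called lower in both strains (15.0% of all probe sets), 3 higher in both (24.5%), and 41 were called in neither strain. The share of all probe sets called in neither strain was not counted. Opposite calls were made in 0 members (0.840% of all probe sets were higher in CEN.PK 113-7D and lower in YSBN2, and 0.192% the reverse).

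The 7 genes lower in chemostat in both strains were MRPL4, IMG1, MRPL3 and MRPL19 of the large subunit and MRP4, RSM19 and MRP1 of the small subunit. MRPL4 (YLR439W) and MRP20 are the counterparts of L29 and L23, which lie beside the exit of the polypeptide tunnel. MRPL4 read 9.16, 11.33 and 11.68 in CEN.PK 113-7D batch and 6.90, 9.24 and 8.90 in chemostat, and 8.92, 8.71 and 9.79 in YSBN2 batch and 4.25, 6.60 and 6.82 in chemostat. Its chemostat difference was -2.37 ± 0.91 in CEN.PK 113-7D (adjusted p = 0.0495, limma) and -3.25 ± 0.91 in YSBN2 (adjusted p = 0.0139). The groups overlapped in CEN.PK 113-7D, where the highest chemostat array exceeded the lowest batch array, and not in YSBN2. The CEN.PK 113-7D call of MRPL4 was lost in 9 of 17 alternatives, each of which left out 1 array (adjusted p up to 0.17, limma).

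IMG1 (YCR046C), the counterpart of L19, read 12.65, 13.31 and 13.54 in CEN.PK 113-7D batch and 11.41, 12.39 and 12.05 in chemostat. The YSBN2 values were 12.79, 12.78 and 12.78 in batch, against 9.75, 10.06 and 11.14 in chemostat. This is 2.32-fold lower in CEN.PK 113-7D chemostat (-1.21 ± 0.38, adjusted p = 0.0216, limma) and 5.54-fold lower in YSBN2 chemostat (-2.47 ± 0.38, adjusted p = 0.000475). The arrays of the cultures did not overlap in either strain.

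MRP4 (YHL004W), the counterpart of S2, read 11.65, 11.99 and 11.78 in CEN.PK 113-7D batch, 10.30, 11.05 and 10.92 in chemostat, 11.10, 11.17 and 11.54 in YSBN2 batch and 9.14, 9.48 and 9.70 in chemostat. The differences were -1.05 ± 0.22 (adjusted p = 0.00271, limma) and -1.83 ± 0.22 (adjusted p = 9.73e-05). All 3 chemostat arrays of each strain lay below its batch arrays.

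MRPL3 (YMR024W), the mitochondria-specific protein mL44, had the smallest adjusted p-values of the set. It read 12.40, 12.52 and 12.74 in CEN.PK 113-7D batch, 11.42, 11.59 and 11.57 in chemostat, 11.66, 11.68 and 11.93 in YSBN2 batch and 10.33, 10.38 and 10.48 in chemostat. The chemostat difference was -1.03 ± 0.11 (adjusted p = 3.02e-05, limma) in CEN.PK 113-7D and -1.36 ± 0.11 (adjusted p = 5.85e-06) in YSBN2. MRPL3 also was lower in YSBN2 in both cultures, so its signals fell into 3 levels, with CEN.PK 113-7D batch highest, CEN.PK 113-7D chemostat and YSBN2 batch between, and YSBN2 chemostat lowest.

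RSM19 (YNR037C), the counterpart of S19, read 12.06, 12.29 and 12.57 in CEN.PK 113-7D batch and 11.37, 11.91 and 11.81 in chemostat, and in YSBN2 11.84, 11.80 and 11.60 in batch and 10.30, 10.48 and 10.79 in chemostat. MRPL19 (YNL185C), the counterpart of L11 at the base of the stalk, read 11.63, 11.79 and 12.19 in CEN.PK 113-7D batch, 10.46, 11.31 and 11.33 in chemostat, 10.94, 10.84 and 11.33 in YSBN2 batch and 9.73, 10.00 and 10.13 in chemostat. RSM19 differed by -0.61 ± 0.18 (adjusted p = 0.0177, limma) in CEN.PK 113-7D and by -1.22 ± 0.18 (adjusted p = 0.000406) in YSBN2, and MRPL19 by -0.84 ± 0.26 (adjusted p = 0.0193) and -1.08 ± 0.26 (adjusted p = 0.00585). The cultures did not overlap in either strain for either gene.

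MRP1 (YDR347W), the small-subunit protein mS43, is related to superoxide dismutases by its fold. It read 12.80, 13.01 and 13.18 in CEN.PK 113-7D batch, 12.39, 12.70 and 12.63 in chemostat, 12.11, 12.34 and 12.68 in YSBN2 batch and 11.47, 11.58 and 11.73 in chemostat. The differences were -0.42 ± 0.16 (adjusted p = 0.0449, limma) and -0.78 ± 0.16 (adjusted p = 0.0025), without overlap in either strain. The CEN.PK 113-7D call of MRP1 was lost in 9 of 18 alternatives, each of which left out 1 array (adjusted p up to 0.146, limma).

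Among these 7 genes the first array was the lowest of its group for 7 in CEN.PK 113-7D batch, 7 in CEN.PK 113-7D chemostat, 3 in YSBN2 batch and 7 in YSBN2 chemostat. Over all 68 members it was the lowest for 23, 21, 31 and 44. The share over all probe sets was not counted, so these counts do not show anything particular to the members. The 10th percentile of the first array was 4.13 in CEN.PK 113-7D batch, against 4.44 and 4.63 in the other arrays of its group, 6.04 in CEN.PK 113-7D chemostat against 6.68 and 7.24, and 5.96 in YSBN2 chemostat against 7.34 and 6.72. It was thus the lowest in these 3 groups, and its part in the result was not tested. The first chemostat arrays of the strains also deviated together from their group means over all probe sets (r = 0.60). Without the first CEN.PK 113-7D chemostat array 3 members were called lower in CEN.PK 113-7D. Without the second or the third CEN.PK 113-7D batch array 5 and 4 were. The shares of all probe sets called in these fits were not counted.

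**Figure D3:**
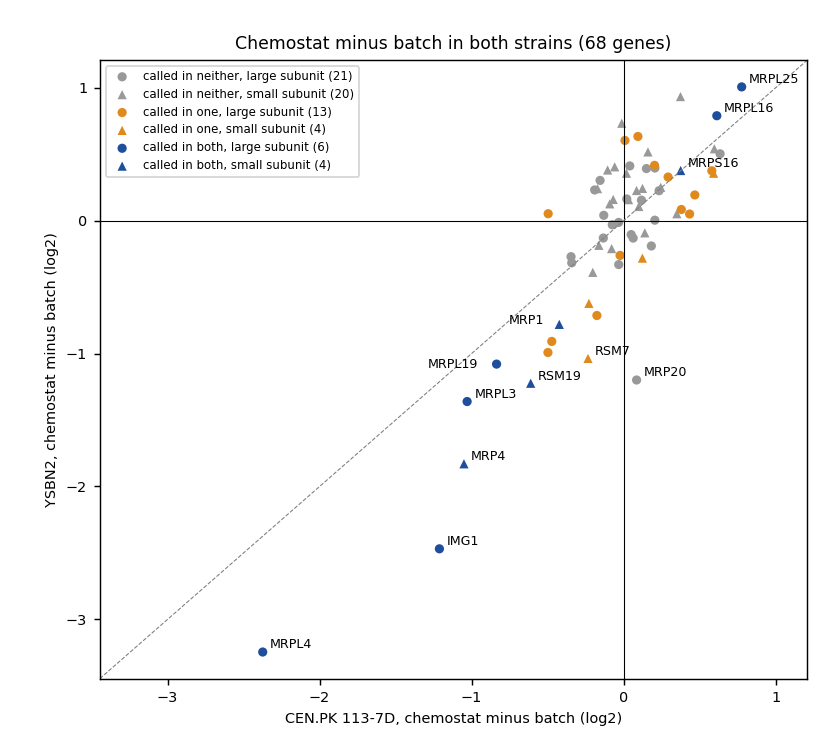
Chemostat minus batch difference (log2) of each of the 68 genes in CEN.PK 113-7D (horizontal axis) and in YSBN2 (vertical axis), with circles for the large and triangles for the small subunit and colours for the number of strains in which the difference was called; the dashed line marks equal differences. Most genes lie near 0, and a tail of genes that ends with IMG1 and MRPL4 extends toward lower chemostat signals in both strains.

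MRPL25, MRPL16 and MRPS16 were called higher in chemostat in both strains. MRPL25 (YGR076C), the mitochondria-specific protein mL59, read 11.11, 10.96 and 10.73 in CEN.PK 113-7D batch and 11.87, 11.47 and 11.78 in chemostat. The YSBN2 values were 10.00, 10.16 and 11.27 in batch, against 11.35, 11.58 and 11.53 in chemostat. The differences were 0.78 ± 0.29 (adjusted p = 0.0444, limma) and 1.01 ± 0.29 (adjusted p = 0.0156), and the cultures did not overlap in either strain. The CEN.PK 113-7D call of MRPL25 was lost in 13 of 18 alternatives (differences of 0.49 to 0.89, adjusted p up to 0.149, limma), also with same-numbered arrays paired (adjusted p = 0.0581).

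MRPL16 (YBL038W), the counterpart of L16 near the tRNA-binding sites of the large subunit, read 11.84, 11.82 and 11.98 in CEN.PK 113-7D batch and 12.56, 12.37 and 12.56 in chemostat. Its YSBN2 signals were 11.21, 11.25 and 11.89 in batch, against 12.21, 12.38 and 12.13 in chemostat. It differed by 0.61 ± 0.17 (adjusted p = 0.0115, limma) in CEN.PK 113-7D and by 0.79 ± 0.17 (adjusted p = 0.00324) in YSBN2, the one higher call of YSBN2 that was made in all 19 settings tried. MRPS16 (YPL013C), the counterpart of S16, was higher by 0.38 ± 0.11 in both strains (adjusted p = 0.0147 and 0.0153, limma). With a common array median MRPL16 and MRPL25 were still called in YSBN2 and none of the 3 was called in CEN.PK 113-7D.

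With the deposited values the other calls were made in 1 strain. In CEN.PK 113-7D, MRPL20 was lower in chemostat (-0.50 ± 0.14, adjusted p = 0.0111, limma), and RSM10 (0.59 ± 0.18), MRPL10 (0.58 ± 0.15), MRPL23 (0.47 ± 0.10), MRPL38 (0.43 ± 0.15) and MRPL9 (0.38 ± 0.10) were higher. MRPL10, MRPL23, MRPL38 and MRPL9 are counterparts of L15, L13, L14 and L3, which are core proteins of the large subunit. In YSBN2, MRPL39 (0.63 ± 0.20), MRPL6 (0.60 ± 0.19), MRP49 (0.42 ± 0.10) and MRPL22 (0.33 ± 0.12) were higher, and the arrays of MRPL22 overlapped.

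RSM7, MRPL11, MRPL8, IMG2, RSM27, MRP51 and MRPL44 were called lower in chemostat in YSBN2 and not in CEN.PK 113-7D with the deposited values. With a common array median MRPL11, MRPL8, IMG2, RSM27 and MRPL44 were also called lower in CEN.PK 113-7D (adjusted p = 0.0076, 0.00895, 0.00287, 0.00436 and 0.0294, limma), and RSM7 and MRP51 were not (adjusted p = 0.0722 and 0.127). RSM7, the counterpart of S7, which organises the head of the small subunit, read 11.36, 11.40 and 12.03 in YSBN2 batch and 10.31, 10.64 and 10.73 in chemostat, a difference of -1.04 ± 0.25 (adjusted p = 0.00678, limma). The CEN.PK 113-7D signals of RSM7 were 12.04, 12.36 and 12.87 in batch, against 11.91, 12.27 and 12.39 in chemostat, and the groups overlapped (-0.23 ± 0.25, adjusted p = 0.466). MRPL11 differed by -0.99 ± 0.23 in YSBN2 and by -0.50 ± 0.23 in CEN.PK 113-7D, and MRPL8, the counterpart of L17, by -0.91 ± 0.21 and -0.47 ± 0.21. For RSM7, MRPL11 and MRPL8 the difference between the strains' responses was -0.80 ± 0.36 (adjusted p = 0.176, limma), -0.49 ± 0.32 (adjusted p = 0.358) and -0.44 ± 0.30 (adjusted p = 0.386), so a difference in response was not shown. Nor was it called for RSM27 (-0.39 ± 0.15, adjusted p = 0.113, limma), MRP51 (-0.41 ± 0.13, adjusted p = 0.0667) or MRPL44 (adjusted p = 0.3).

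**Figure D4:**
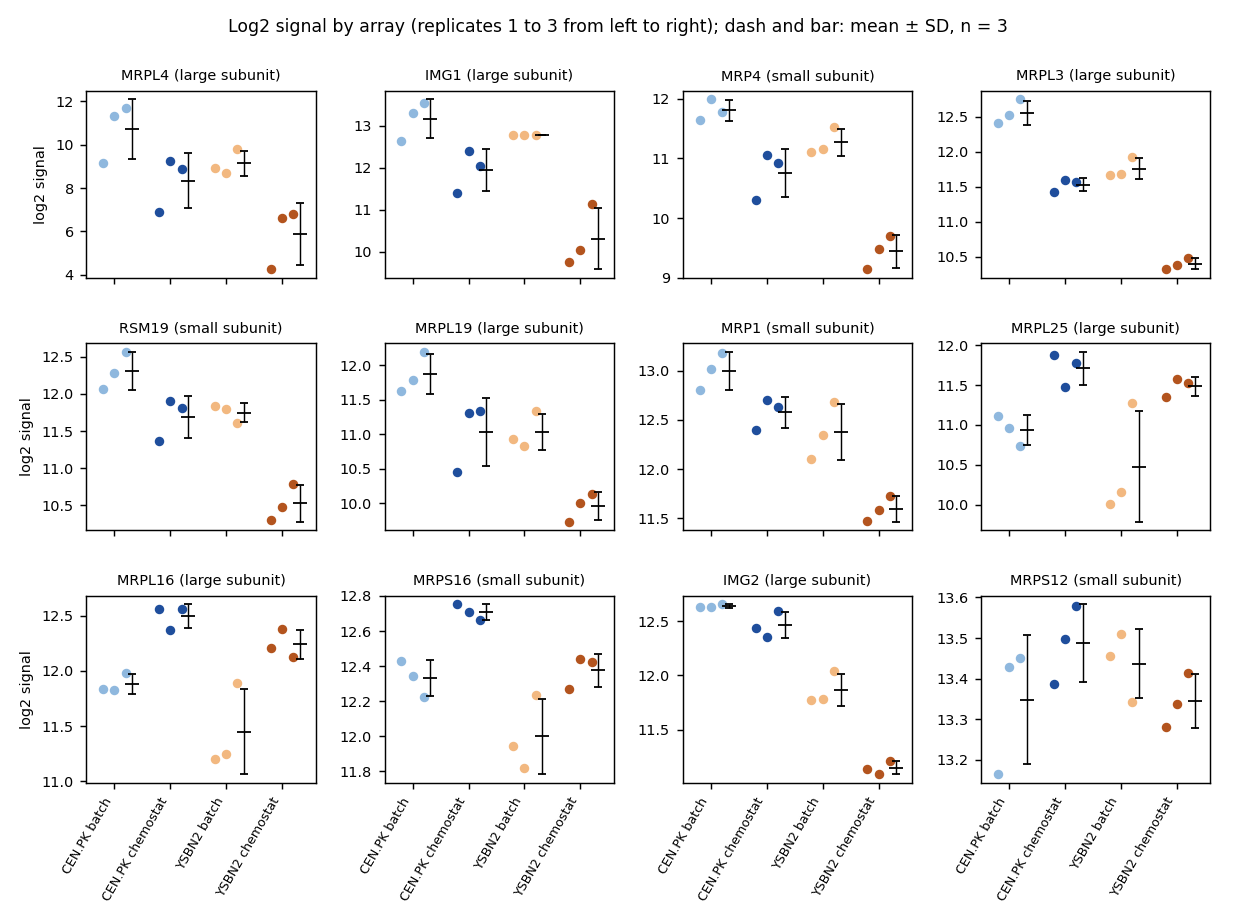
Log2 signal on each array (points, replicates 1 to 3 from left to right) with the mean and SD of each group of 3 arrays, for the 7 genes called lower in chemostat in both strains, the 3 called higher in both, IMG2, and MRPS12 as a gene with no call. Each panel has its own axis, which does not start at 0; the YSBN2 chemostat arrays are the lowest group in the 7 lower genes and in IMG2.

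The strain difference of the chemostat effect itself was called in IMG2 alone. Of the 68 members 0 were called higher and 1 lower in YSBN2 (4.34% and 11.1% of all probe sets), with a median of 0.00 against -0.05 over all probe sets. IMG2 differed between cultures by -0.18 ± 0.09 in CEN.PK 113-7D and by -0.71 ± 0.09 in YSBN2, and the difference of these effects was -0.54 ± 0.12 (adjusted p = 0.0189, limma). With a common array median it was -0.39 (adjusted p = 0.101), and 1 other member was higher and 0 lower (7.16% and 8.45% of all probe sets). Larger but less precise differences, -1.26 ± 0.54 in IMG1 (adjusted p = 0.16) and -1.28 ± 1.17 in MRP20 (adjusted p = 0.532), were not called. Without the third YSBN2 batch array 11 members were called higher and 1 lower, against 10.3% and 15.7% of all probe sets in that fit.

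By subunit, chemostat calls were 6 higher and 5 lower of 40 large-subunit genes and 2 higher and 3 lower of 28 small-subunit genes in CEN.PK 113-7D. In YSBN2 they were 6 higher and 8 lower, and 1 higher and 6 lower. The 41 genes with bacterial counterparts had 7 higher and 5 lower calls in CEN.PK 113-7D, and 5 higher and 8 lower in YSBN2. The 25 mitochondria-specific genes had 1 and 3, and 2 and 5. YSBN2 was lower in 21 of the 41 and 17 of the 25 in batch, and in 24 and 12 in chemostat. Over all probe sets, 33.9% were higher and 22.2% lower in CEN.PK 113-7D chemostat, and 30.6% and 21.9% in YSBN2 chemostat. YSBN2 was lower in 10.5% of all probe sets in batch and in 15.3% in chemostat. The difference between subunits or classes was not tested.

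MRP20 and MRPL4 were the members whose 3 arrays of a group spanned more than 2 log2 units. MRP20 (YDR405W) read 7.71, 8.78 and 9.80 in CEN.PK 113-7D batch, 7.37, 9.64 and 9.54 in chemostat, 7.78, 7.28 and 9.90 in YSBN2 batch and 6.75, 7.37 and 7.25 in chemostat. Its groups overlapped and no comparison of it was called. In all, 17 members, 7 of the large and 10 of the small subunit, were called in none of the 5 comparisons: MRP20, MRPL1, MRPL33, MRPL35, MRPL37, MRPL40, MRPL51, MRP13, MRP21, MRPS5, MRPS12, MRPS18, RSM18, RSM22, RSM23, RSM24 and RSM26. The share of all probe sets called in none was not counted.

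Other genes of the mitochondrial translation system were compared from lists, also chosen with earlier results of these data known. Of 11 listed ribosomal proteins with names outside the MRP pattern 9 were measured. In batch 4 of them were lower in YSBN2 and 1 higher (10.5% and 18.5% of all probe sets). In chemostat 3 were lower and 1 higher (15.3% and 12.9% of all probe sets). NAM9, the counterpart of S4, differed between the strains by -0.58 ± 0.14 in batch and -0.49 ± 0.14 in chemostat, and PET123 by -0.81 ± 0.17 and -0.65 ± 0.17. The higher gene was EHD3, the small-subunit protein mS47, a relative of hydroxyisobutyryl-CoA hydrolases. It lay between 2.32 and 2.98 in all 6 CEN.PK 113-7D arrays, near the lowest values of the arrays, and read 9.22, 8.07, 10.26, 10.14, 9.96 and 10.52 in YSBN2. None of the 9 was called between cultures in CEN.PK 113-7D (33.9% of all probe sets were higher and 22.2% lower). MRX14 and RTC6 were higher in YSBN2 chemostat (30.6% of all probe sets).

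Of 9 translation factors, 3 were lower in YSBN2 in batch and 4 in chemostat (10.5% and 15.3% of all probe sets). In both cultures 0 were higher (18.5% and 12.9% of all probe sets). MRF1, the release factor, read 11.64, 11.46 and 11.61 in CEN.PK 113-7D batch, 11.96, 11.72 and 11.93 in chemostat, 10.96, 10.74 and 10.71 in YSBN2 batch and 10.75, 10.86 and 10.92 in chemostat. The strains did not overlap, with differences of -0.77 ± 0.10 (adjusted p = 0.000398, limma) and -1.03 ± 0.10 (adjusted p = 9.28e-05). The elongation factors TUF1 and MEF1 were lower in YSBN2 as well, with differences of -0.42 ± 0.08 in batch and -0.41 ± 0.08 in chemostat for TUF1 and of -0.62 ± 0.14 and -0.48 ± 0.14 for MEF1. Between cultures 3 factors were higher and 1 lower in each strain. The shares of all probe sets were 33.9% and 22.2% in CEN.PK 113-7D, and 30.6% and 21.9% in YSBN2. TUF1 was the lower factor in both strains (-0.29 ± 0.08 and -0.28 ± 0.08). With a common array median 0 factors were higher and 2 lower in CEN.PK 113-7D (25.4% and 37.5% of all probe sets).

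Among 8 assembly and rRNA-modification genes, MRM1 and MRM2, which methylate the mitochondrial large rRNA, moved in opposite directions. MRM1 differed between chemostat and batch by -1.004 ± 0.17 (adjusted p = 0.000855, limma) in CEN.PK 113-7D and by -1.89 ± 0.17 (adjusted p = 1.66e-05) in YSBN2, and MRM2 by 1.14 ± 0.21 (adjusted p = 0.00118) and 1.34 ± 0.21 (adjusted p = 0.000486). MAM33, a matrix protein that takes part in assembly, was lower in YSBN2 (-1.14 ± 0.30 in batch and -1.10 ± 0.30 in chemostat). Of 6 genes for membrane insertion of the products, 3 were higher and 1 lower in CEN.PK 113-7D chemostat (33.9% and 22.2% of all probe sets). In YSBN2 chemostat 2 were higher and 1 lower (30.6% and 21.9% of all probe sets). The lower gene in both strains was OXA1, the insertase that binds the ribosome. It read 11.77, 12.35 and 12.21 in CEN.PK 113-7D batch, 10.08, 10.81 and 10.46 in chemostat, 12.18, 12.21 and 11.93 in YSBN2 batch and 9.87, 9.95 and 10.11 in chemostat, and differed by -1.66 ± 0.20 and -2.13 ± 0.20. Of the 13 mitochondrial aminoacyl-tRNA synthetases, 3 were lower in YSBN2 in batch and 4 in chemostat (10.5% and 15.3% of all probe sets). In both cultures 0 were higher (18.5% and 12.9% of all probe sets).

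The activators that act on single mitochondrial mRNAs had more higher than lower calls in chemostat, as did all probe sets with the deposited values. Of 17 measured, 7 (41.2%) were higher and 1 lower in CEN.PK 113-7D chemostat (33.9% and 22.2% of all probe sets). In YSBN2 chemostat 11 (64.7%) were higher and 1 lower (30.6% and 21.9% of all probe sets). Their median differences were 0.53 and 0.71 (0.09 and 0.06 over all probe sets). With quantile normalization these medians were -0.11 and 0.51 (-0.15 and -0.04 over all probe sets). The sign of the activators' median in CEN.PK 113-7D thus depended on the scaling. Scaled to a common array median, 5 were higher and 2 lower in CEN.PK 113-7D (25.4% and 37.5% of all probe sets). In YSBN2 these counts were 8 and 2 (25.8% and 27.4% of all probe sets). PET494, which activates COX3 mRNA, rose by 1.02 ± 0.13 and 1.04 ± 0.13, and ATP22, which acts on ATP6 mRNA, by 1.24 ± 0.19 and 0.75 ± 0.19. Between the strains the median difference of the activators was 0.05 in batch and 0.18 in chemostat. They had 2 higher and 3 lower calls in batch (18.5% and 10.5% of all probe sets). In chemostat they had 3 and 0 (12.9% and 15.3% of all probe sets). The 33 genes of the respiratory chain and the ATP synthase had 31 and 33 higher calls in chemostat (33.9% and 30.6% of all probe sets). For YSBN2 in batch they had 2 higher and 18 lower calls (18.5% and 10.5% of all probe sets). For YSBN2 in chemostat they had 2 and 5 (12.9% and 15.3% of all probe sets), and the lower share of 15.2% was near that of all probe sets. Of the 127 cytosolic ribosomal protein probe sets taken by name pattern, 0 were higher and 97 lower in CEN.PK 113-7D chemostat (33.9% and 22.2% of all probe sets). In YSBN2 chemostat 1 was higher and 30 (23.6%) lower (30.6% and 21.9% of all probe sets). For YSBN2 in batch the counts were 0 and 10 (18.5% and 10.5% of all probe sets). For YSBN2 in chemostat they were 29 and 1 (12.9% and 15.3% of all probe sets). With a common array median these counts were 0 and 126, 1 and 51, 0 and 17, and 18 and 0. The shares of all probe sets were then 25.4% and 37.5%, 25.8% and 27.4%, 14.8% and 14.8%, and 14.8% and 13.8%.

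Transcripts of regulators linked to these genes were read as well. HAP4, the activating subunit of the Hap complex that controls respiratory genes, read 11.85, 11.46 and 11.69 in CEN.PK 113-7D batch and 13.41, 13.38 and 13.43 in chemostat, a difference of 1.74 ± 0.46 (adjusted p = 0.00985, limma). Its YSBN2 signals were 11.58, 11.58 and 13.65 in batch, against 12.89, 13.04 and 12.86 in chemostat, and it was not called (0.66 ± 0.46, adjusted p = 0.262). The third YSBN2 batch array thus had the highest HAP4 signal of all 12. PUF3, an RNA-binding protein that binds many messengers of mitochondrial proteins, lay between 2.55 and 4.01 in CEN.PK 113-7D and between 3.30 and 3.57 in YSBN2 batch, low on the scale, and read 6.30, 7.31 and 5.01 in YSBN2 chemostat. The YSBN2 chemostat arrays of PUF3 lay above the other 9, but its CEN.PK 113-7D chemostat signals were under the 10th percentiles of those arrays. In YSBN2 chemostat the PUF3 signals of 7.31 and 5.01 were also under the 10th percentiles of their arrays, 7.34 and 6.72. The PUF3 signal of 6.30 lay above the 10th percentile of its array, 5.96. No size is therefore given for the difference, and PUF3 was low on the scale in YSBN2 chemostat as well. RPO41, the mitochondrial RNA polymerase, was higher in chemostat by 1.03 ± 0.12 in CEN.PK 113-7D and 0.94 ± 0.12 in YSBN2.

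**Figure D5:**
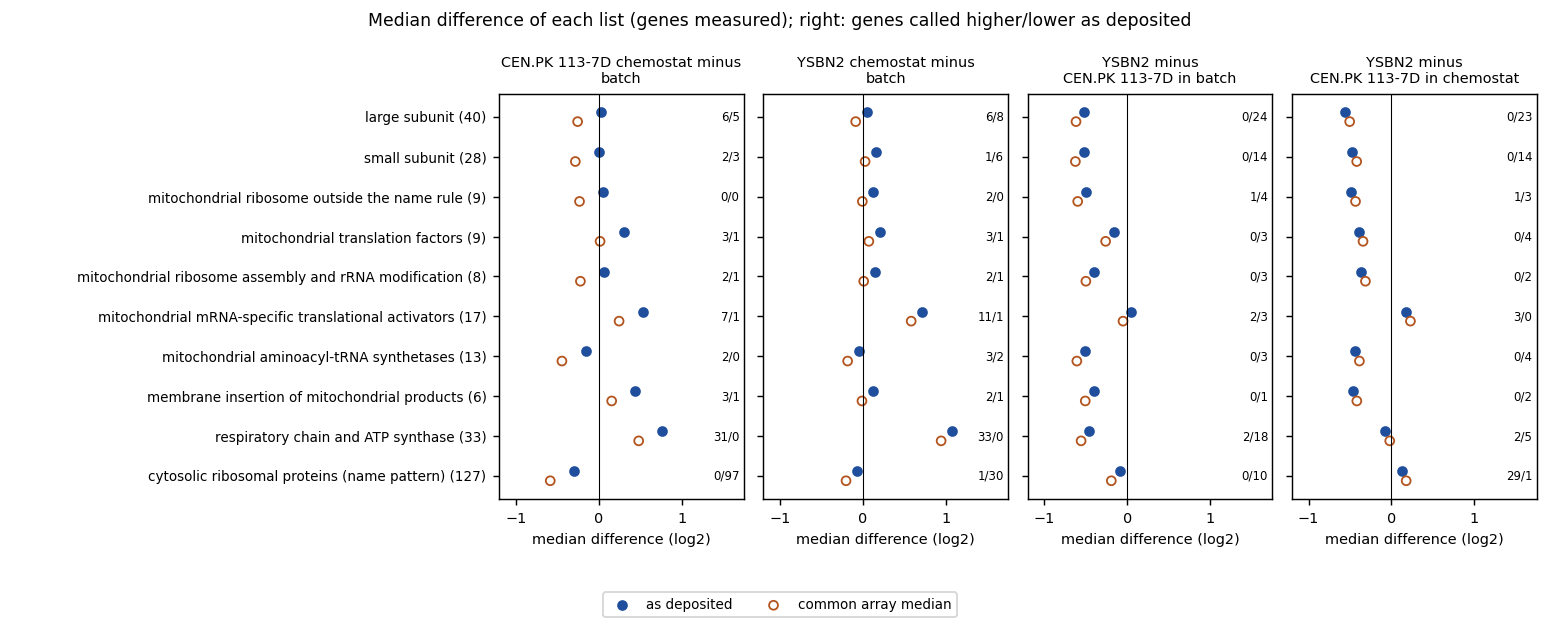
Median difference (log2) of the genes of each list in the 4 comparisons, with filled circles for the deposited values and open circles for a common array median; the numbers at the right of each panel are genes called higher and lower with the deposited values, and the number of genes measured stands beside each list's name. Both ribosomal subunits lie near -0.5 in the strain comparisons and near 0 in the chemostat comparisons with the deposited values.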

How the data were processed

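Biotin-labelled RNA from 12 cultures was hybridised to Affymetrix arrays. The deposited values run from 1.69 to 16.2 and were taken as log2; the base is not stated in the labels. R 2.6, affy and RMA are named per the submitters' processing notes, without order or settings; background correction and normalization settings were not found in these sources. Symbols came from the platform annotation and all 68 matched RefSeq. Differences were fitted with limma 3.58.1 under R 4.3.3 (a mean for each group, all 12 arrays, 5 contrasts, eBayes, 8 residual degrees of freedom, Benjamini-Hochberg adjustment over 5716 probe sets, threshold 0.05) and tested on simulated data. The 3 arrays per group limit the precision.

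Members and lists were chosen with earlier results of these data known, and counts and medians of lists are descriptions. Genes named with values were, per comparison, up to the 8 largest called rises and falls, the highest and lowest members, members spanning over 2 units in a group, members with a called strain difference of effect, and called genes of the other lists. RSM18, MRPS18, MNP1, MRP7 and MRPL36 were chosen after their values were seen.

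The labels number the replicates without a shared day. Deviations of same-numbered arrays from group means correlated for the 2 cultures of CEN.PK 113-7D (smallest r 0.28, minimum for pairing 0.1). Pairing there rests on the data and not on the labels. In the other comparisons the smallest r was -0.17, 0.00 and -0.10, under that minimum. Between the chemostats of the strains, however, r was 0.60 for the first arrays, -0.10 for the second and 0.20 for the third. The alternatives tried: a common median of arrays, quantile normalization, leaving out the 25% dimmest probe sets, raising values under 6 to 6, eBayes with trend and robust settings, the replicate number as a block, and leaving out each array. No sequences or coordinates were used here.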

Additional observations from a re-analysis of the deposited data

Results flagged for a closer look

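In IMG2 the chemostat effect differed between the strains by -0.54 ± 0.12 (adjusted p = 0.0189, limma), being -0.18 in CEN.PK 113-7D and -0.71 in YSBN2. Its 3 YSBN2 chemostat arrays lay below the other 9. The call of IMG2 was lost with a common array median (-0.39, adjusted p = 0.101, limma). In 3 further genes of the mitochondrial translation lists the strain difference of the chemostat effect passed the test with the deposited values. MRM1, the rRNA methyltransferase, was lower in chemostat (-1.004 in CEN.PK 113-7D and -1.89 in YSBN2), a difference of effects of -0.88 (adjusted p = 0.0388, limma). That call of MRM1 was lost with a common array median (-0.73, adjusted p = 0.075, limma) and with quantile normalization (-0.81, adjusted p = 0.0644). CBS2, an activator of COB mRNA translation, was higher in chemostat by 0.66 and 1.32, a difference of 0.66 (adjusted p = 0.0203, limma). RTC6, a large-subunit protein named outside the MRP pattern, changed by 0.05 and 0.41, a difference of 0.35 (adjusted p = 0.0491, limma).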

How the results depend on the processing

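Between the strains no member was called higher under any alternative and the median stayed negative; leaving out 1 array gave medians from -0.67 to -0.45 in batch with 15 to 52 lower calls, and from -0.60 to -0.49 in chemostat with 20 to 45. Called lower in all 19 settings were 13 members in batch and 20 in chemostat. With 1 array left out, shares of all probe sets were counted only for the third YSBN2 batch array. The culture comparisons depended more on scaling. In CEN.PK 113-7D the median difference of 0.02 became -0.27 with a common array median and -0.20 with quantile normalization, with 0 and 3 members higher and 24 and 20 lower; leaving out 1 array gave -0.02 to 0.06, 5 to 12 higher (5 without the third chemostat array) and 3 to 10 lower. MRP4, MRPL20 and MRPL3 were lower in all 19 settings. In YSBN2, 2 members were higher with a common array median; leaving out 1 array gave medians of 0.02 to 0.21, 3 to 26 higher (3 without the second batch or the second chemostat array, 26 without the third batch array) and 12 to 15 lower, and 11 members were lower in all 19 settings. For the difference of effects, 1 member was called higher and 0 lower with a common array median, 2 higher with quantile normalization, 2 lower with values under 6 raised to 6, and 3 lower with the replicate block, which changed no other count by over 1.5 times; leaving out 1 array gave medians of -0.10 to 0.12, 0 to 11 higher and 1 to 2 lower. The median over members of the group means was 12.33 in CEN.PK 113-7D batch, 12.08 in CEN.PK 113-7D chemostat and 11.48 in YSBN2 chemostat with a common array median, and 12.29 in CEN.PK 113-7D batch with quantile normalization; leaving out 1 array gave 12.17 to 12.19, 12.19 to 12.27, 11.50 to 11.68 (YSBN2 batch) and 11.51 to 11.59 (YSBN2 chemostat). Of 48 results for single named genes 0 reversed and 26 lost their call under at least 1 alternative; the block ended the calls of MRPL25 in CEN.PK 113-7D (adjusted p = 0.0581, limma) and of MRPL22 in YSBN2 (adjusted p = 0.0685), which was lost in 12 of 18 alternatives. The cause was not tested. All probe sets in place of the brightest gave no alternative, as each member has 1 probe set.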
